A study of Mus musculus with 79 samples.

Results

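The hypothalamus speaks to the pituitary, and to its own circuits, through small peptides cut from larger precursors, and 10 genes encoding such peptides are described here out of the 25965 genes of the expression table. They were taken by name and are Avp (vasopressin), Oxt (oxytocin), Crh (corticotropin-releasing hormone), Trh (thyrotropin-releasing hormone), Gnrh1 (gonadotropin-releasing hormone), Kiss1 (kisspeptin), Tac1 (substance P and neurokinin A), Tac2 (neurokinin B), Vip (vasoactive intestinal peptide) and Grp (gastrin-releasing peptide). The tissue was whole hypothalamus of C57BL/6Babr mice aged 14 weeks in 2 genotypes of Dnmt3a, the gene of a de novo DNA methyltransferase. In +/+ animals both alleles were wild type. In Δ/D329A animals the maternal allele had lost exon 18 through Zp3-Cre, a recombinase driven in oocytes, and the paternal allele carried the D329A substitution in the PWWP domain, the part of the enzyme that reads methylated histone H3, so that the mutant protein was the only functional DNMT3A in every cell. Expression was measured by RNA-seq in 5 +/+ and 4 Δ/D329A animals, and H3K4me3, H3K27me3, H3K36me3 and input by ChIP-seq in 3 +/+ and 3 Δ/D329A animals. The RNA came from females and the chromatin from males, so that a difference between an RNA and a ChIP value cannot be told apart from one between the sexes. In these bulk samples fewer cells of a type and less RNA per cell cannot be told apart.

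Each of these peptides is made by a small and mostly separate set of neurons. Vasopressin and oxytocin are made by large neurons of the paraventricular and supraoptic nuclei and released in the posterior pituitary. Corticotropin-, thyrotropin- and gonadotropin-releasing hormones are released into the portal blood of the anterior pituitary, where they act on the cells that secrete corticotropin, thyrotropin and the gonadotropins. Kisspeptin and neurokinin B are made together in neurons of the arcuate nucleus that drive gonadotropin-releasing hormone neurons, whereas vasoactive intestinal peptide and gastrin-releasing peptide mark light-receiving cells of the suprachiasmatic nucleus. H3K4me3 marks the starts of active genes, H3K27me3 is laid down by Polycomb repressive complex 2 over genes held silent, and H3K36me3 covers the bodies of transcribed genes.

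The genes lie on GRCm38 at chr2:130580620-130582554 on the minus strand (Avp), chr2:130576173-130577054 on the plus strand (Oxt), chr3:19693401-19695396, minus (Crh), chr6:92242061-92244650, minus (Trh), chr14:67745229-67749435, plus (Gnrh1), chr1:133321875-133329901, plus (Kiss1), chr6:7555071-7562973, plus (Tac1), chr10:127724478-127731767, plus (Tac2), and chr10:5639218-5647614, plus (Vip). Avp and Oxt face each other tail to tail with 3565 bp between their ends.

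The promoters of the peptide genes differ widely in CpG, the dinucleotide that DNA methyltransferases modify. RefSeq promoters were found for 7 of the 10 genes on GRCm38.p6, and the 250 bases before the start are shown for Trh and Tac1, which carried the most H3K27me3 among these 7, for the neighbours Oxt and Avp, and for Vip, which was called for no mark. Each is written 5′ to 3′ along the strand of its gene, and capitals mark CpG.
Trh, chr6:92244651-92244900, minus strand: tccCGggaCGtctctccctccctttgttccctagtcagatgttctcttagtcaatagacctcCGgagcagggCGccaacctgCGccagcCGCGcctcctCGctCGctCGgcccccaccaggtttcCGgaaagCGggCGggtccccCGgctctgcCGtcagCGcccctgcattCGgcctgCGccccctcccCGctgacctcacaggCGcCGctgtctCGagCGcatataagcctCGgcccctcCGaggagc
Tac1, chr6:7554811-7555060, plus strand: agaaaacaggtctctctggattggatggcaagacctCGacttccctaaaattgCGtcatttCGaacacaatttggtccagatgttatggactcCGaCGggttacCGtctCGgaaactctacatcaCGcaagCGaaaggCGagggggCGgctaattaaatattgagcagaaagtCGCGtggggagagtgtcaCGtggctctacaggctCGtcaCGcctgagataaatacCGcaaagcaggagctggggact
Oxt, chr2:130575919-130576168, plus strand: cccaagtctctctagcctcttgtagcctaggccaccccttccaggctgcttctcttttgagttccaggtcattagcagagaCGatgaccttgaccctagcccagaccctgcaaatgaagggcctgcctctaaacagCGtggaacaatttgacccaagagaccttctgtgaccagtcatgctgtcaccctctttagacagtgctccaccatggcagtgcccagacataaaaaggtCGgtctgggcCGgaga
Avp, chr2:130582589-130582838, minus strand: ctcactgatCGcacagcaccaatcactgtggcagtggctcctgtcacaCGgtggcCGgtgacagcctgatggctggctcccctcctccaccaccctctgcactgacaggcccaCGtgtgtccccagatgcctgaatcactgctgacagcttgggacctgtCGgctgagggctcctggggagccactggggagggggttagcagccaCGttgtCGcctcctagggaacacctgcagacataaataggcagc
Vip, chr10:5638968-5639217, plus strand: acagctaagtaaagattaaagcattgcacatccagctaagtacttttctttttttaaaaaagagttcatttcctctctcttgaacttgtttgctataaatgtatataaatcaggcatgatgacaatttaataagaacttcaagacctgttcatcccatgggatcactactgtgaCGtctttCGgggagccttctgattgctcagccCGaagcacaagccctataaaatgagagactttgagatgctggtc

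The Trh window held 25 CpG and the Tac1 window 17, against a median of 6 over 32851 RefSeq promoters, of which 89.3% held fewer than Trh and 76.5% fewer than Tac1. Avp held 7, Oxt 4, Vip 3, and Kiss1 and Tac2 2 each. The RefSeq start of Kiss1 lies 5337 bp further along the gene than the start used for its marks. The E-box CACGTG, present in 6.02% of promoters, was found 139 bases before the Avp start and 61 bases before the Tac1 start. The TATA box TATAAA, present in 12.4%, was found 3 times before Vip, the nearest 30 bases from the start. The cAMP response element TGACGTCA, present in 1.55%, was in none of the 7 windows on either strand. These are matches of letters only.

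The transcripts spanned more than 2 orders of level, from abundant Oxt to barely detected Gnrh1. In RPKM, that is reads per kilobase of exon, scaled to the reads mapped in the library, Oxt averaged 130 ± 53.4 and Avp 83.5 ± 28.2 in +/+ (SD, n = 5), higher than 99.7% and 99.4% of the 17839 genes tested. Tac1 at 22.6 ± 6.38 and Trh at 20.5 ± 4.68 followed, then Tac2 at 7.77 ± 3.32 and Vip at 2.72 ± 0.693. Grp at 1.53 ± 0.623, Kiss1 at 1.46 ± 1.09, Crh at 1.34 ± 0.624 and Gnrh1 at 0.576 ± 0.0513 were the lowest, and 29.4% of the genes tested lay below Gnrh1. In this order Oxt and Avp overlapped between +/+ libraries, as did Tac1 and Trh, Vip with Grp and Kiss1, and Grp, Kiss1 and Crh among themselves. Gnrh1 overlapped only Kiss1, and no +/+ library of Avp or Oxt was as low as the highest of Tac1.

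The low transcripts rest on few reads. Gnrh1 had 3 to 16 reads per library, Kiss1 2 to 48, Grp 8 to 46 and Crh 15 to 49, whereas Oxt had 615 to 1928 and Tac1 125 to 566. Libraries held 5404919 to 9625802 reads on nuclear genes in +/+ and 3776938 to 6408171 in Δ/D329A, and the ChIP libraries 12676361 to 30207875 mapped reads. The tissue carried other hypothalamic markers as well, since the summed level of 7 further peptides and Hdc ran from 248 to 502 RPKM in +/+ and from 261 to 378 in Δ/D329A. Anterior pituitary markers summed to 0.448 to 15.4 and 1.65 to 9.15 RPKM, with 1 of 7 at 0 reads in every library. Dnmt3a itself lay at 3.28 to 4.31 RPKM in +/+ and 2.84 to 3.30 in Δ/D329A (log2 difference -0.28, SE 0.13, limma adjusted p = 0.355), and the reads do not tell its alleles apart. The RNA libraries also differed in reads on some mitochondrial genes, nearly in step with genotype, for a cause that was not tested. Reads on the mitochondrial genes from mt-Co2 to mt-Nd4l numbered 3 to 11 in every Δ/D329A library and 8 in +/+ replicate 4, but 11834 to 96591 in the other +/+ libraries, while mt-Nd1 had 5447 to 17131 reads throughout.

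None of the 10 peptide genes passed the test between the genotypes. By limma at an adjusted p under 0.01 the count was 0 of 10, where 0.107% of all genes tested were called. Gene by gene, 5 log2 differences lay above 0 and 5 below, with a median of -0.17 against 0.06 over all genes tested. At an unadjusted p under 0.05 there were 3 peptide genes, namely Gnrh1, Kiss1 and Tac1, and 1360 of all genes tested (7.62%). In every one of the 10 the libraries of the genotypes overlapped, where 3.0% of all genes did not.

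**Figure D1:**
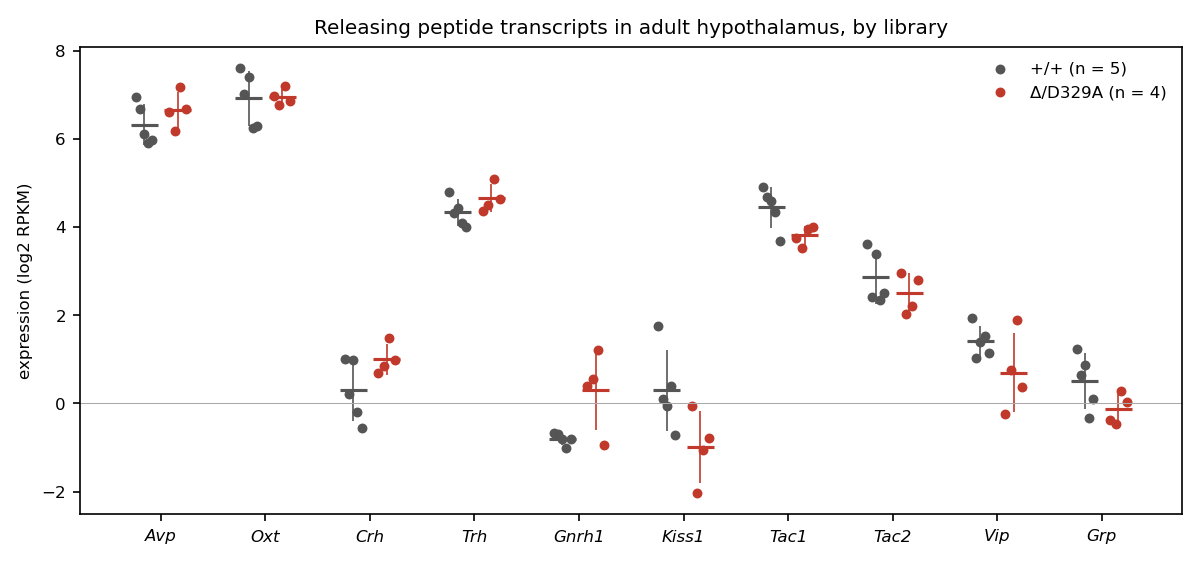
Expression of the 10 peptide genes in log2 RPKM, with 1 point per animal for 5 +/+ (grey) and 4 Δ/D329A (red) libraries, horizontal bars for the mean and vertical lines for 1 SD. Oxt and Avp lie near the top in both genotypes, and most Gnrh1 points of Δ/D329A lie above the +/+ cluster. The Tac1 points of Δ/D329A lie below every +/+ point but 1, and no gene has groups that are fully apart.

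Tac1, the precursor of substance P and neurokinin A, was the only one of the 10 called by any tool. Of the 3 tools 1 alone called it, and edgeR did not test Gnrh1 and Kiss1. The level of Tac1 was 29.8, 25.8, 24.1, 20.4 and 12.9 RPKM in +/+ replicates 1 to 5 and 13.5, 11.5, 15.5 and 16.1 RPKM in the Δ/D329A libraries. All 4 Δ/D329A libraries lay below 4 of the 5 +/+ libraries, and only +/+ replicate 5 reached into their range. The log2 difference was -0.63 (SE 0.23, limma adjusted p = 0.355, exact permutation p = 0.0635, where 0.0159 is the smallest that 5 against 4 allows). With DESeq2 on the recovered reads it was called (log2 difference -0.66, adjusted p = 0.000351), where 1.23% of all genes tested by that tool were, and with edgeR it was not (adjusted p = 0.0141), where 0.548% were. Against +/+ replicates 4 and 5 alone, a subset chosen after seeing the data, the difference was -0.21 (limma adjusted p = 0.50). The median over all genes was 0.35 in that comparison and 0.06 with all +/+ libraries. Tac1 and Tac2 are also markers of the medial habenula. The 6 other habenula markers of the list summed to 1.92 to 4.21 RPKM in +/+ and 2.56 to 4.03 in Δ/D329A, and 1 of them, Pou4f1, was called higher (8 reads over all +/+ and 191 over all Δ/D329A libraries, log2 difference 5.28, SE 0.47, limma adjusted p = 0.000607), while Chrnb4 had 27 reads in +/+ and 2 in Δ/D329A. The paper lists Pou4f1 among normally repressed genes that gained both DNA methylation and expression in Δ/D329A hypothalamus. The part of habenula tissue in the Tac1 and Tac2 values was not tested.

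The other tachykinin gene, Tac2, and its partner Kiss1 both had lower means in Δ/D329A without a call. Kiss1 was at 3.35, 1.07, 0.959, 1.33 and 0.609 RPKM in +/+ and at 0.965, 0.244, 0.483 and 0.577 RPKM in Δ/D329A. In Δ/D329A, 3 libraries lay below every +/+ library and the first lay among them, and +/+ replicate 1 stood well above the rest. The log2 difference was -1.28 (SE 0.49, limma adjusted p = 0.355, exact permutation p = 0.0476). Tac2 was at 12.2, 5.36, 10.5, 5.11 and 5.71 RPKM in +/+ and at 7.81, 4.09, 4.60 and 6.92 RPKM in Δ/D329A, with a log2 difference of -0.36 (SE 0.31, limma adjusted p = 0.713). Its sign depended on which +/+ libraries were used, and against +/+ replicates 4 and 5 alone it was 0.06, where the median over all genes was 0.35.

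Gnrh1, the final output of that circuit, had the largest log2 difference upward. It was at 0.626, 0.614, 0.574, 0.495 and 0.569 RPKM in +/+ and at 1.31, 1.46, 2.31 and 0.518 RPKM in Δ/D329A. The +/+ libraries lay close together, 3 Δ/D329A libraries stood above all of them, and Δ/D329A replicate 4 lay within their range. The log2 difference was 1.10 (SE 0.36, limma adjusted p = 0.355, exact permutation p = 0.0794), and without Δ/D329A replicate 4 it was 1.52 (adjusted p = 0.0431). With 3 to 16 reads per library the counting error is large.

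Avp and Oxt of the large neurons, and Trh and Crh of the portal system, were not called either. Avp was at 124, 102, 68.8, 60.3 and 62.4 RPKM in +/+ and 97.4, 72.2, 144 and 102 RPKM in Δ/D329A (log2 difference 0.33, SE 0.28, limma adjusted p = 0.705). Oxt was at 195, 130, 169, 76.2 and 78.3 RPKM in +/+ and 125, 109, 146 and 116 RPKM in Δ/D329A (log2 difference 0.03, SE 0.31, limma adjusted p = 0.991). For both genes the Δ/D329A libraries lay inside or close to the +/+ range, and +/+ replicates 4 and 5 were low together. Against those 2 libraries alone the differences of Oxt and Avp were 0.67 and 0.72 (adjusted p = 0.0767 and 0.129), while the median over all genes was 0.35. Trh averaged 20.5 ± 4.68 RPKM in +/+ and 25.6 ± 6.03 in Δ/D329A (SD, n = 5 and 4), with a log2 difference of 0.32 (SE 0.20, limma adjusted p = 0.531). Crh was at 2.02, 1.16, 1.98, 0.880 and 0.674 RPKM in +/+ and 1.60, 1.80, 2.79 and 1.97 RPKM in Δ/D329A (log2 difference 0.71, SE 0.34, limma adjusted p = 0.355). Its 4 Δ/D329A libraries all lay above the lowest 3 of +/+, and against +/+ replicates 4 and 5 alone the difference was 1.38 (adjusted p = 0.0458), short of the threshold.

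The suprachiasmatic peptides had lower means in Δ/D329A. The Grp gene is at chr18:65872820-65886578 on the plus strand. Vip was at 3.81, 2.05, 2.64, 2.87 and 2.22 RPKM in +/+ and at 0.850, 1.68, 3.70 and 1.30 RPKM in Δ/D329A (log2 difference -0.71, SE 0.37, limma adjusted p = 0.378). Of the 4 Δ/D329A libraries, 3 fell below the +/+ range and replicate 3 lay near its top. Grp was at 2.37, 1.57, 1.84, 0.793 and 1.07 RPKM in +/+ and at 0.775, 0.719, 1.21 and 1.02 RPKM in Δ/D329A (log2 difference -0.64, SE 0.32, limma adjusted p = 0.355). The Δ/D329A libraries overlapped with +/+ replicates 4 and 5 only, and against those 2 the difference was -0.01, where the median over all genes was 0.35.

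The peptide genes were next read for the marks at their promoters, taken from 1500 bp before to 500 bp after the start, in +/+ against input. A mark was called at a limma adjusted p under 0.05 and a log2 difference over 1. H3K4me3 was called at 3 of 10, Tac1 (log2 over input 2.50), Crh (2.23) and Grp (1.97), where 58.1% of all promoters were called. H3K27me3 was called at 5 of 10, Trh (2.54), Tac1 (2.41), Crh (2.12), Grp (2.07) and Oxt (1.30), where 12.1% were. Tac1, Crh and Grp thus held both marks, as did 7.25% of all promoters. H3K4me3 alone, the state of 50.9% of promoters, was found at none of the 10, and H3K27me3 alone, the state of 4.87%, at Oxt and Trh. At the Trh promoter H3K4me3 was above input but under the limit (0.37, limma adjusted p = 0.185). Without replicate 2 it was 0.74 (limma adjusted p = 0.0228). Avp, Gnrh1, Kiss1, Tac2 and Vip were called for neither, like 37% of promoters.

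**Figure D2:**
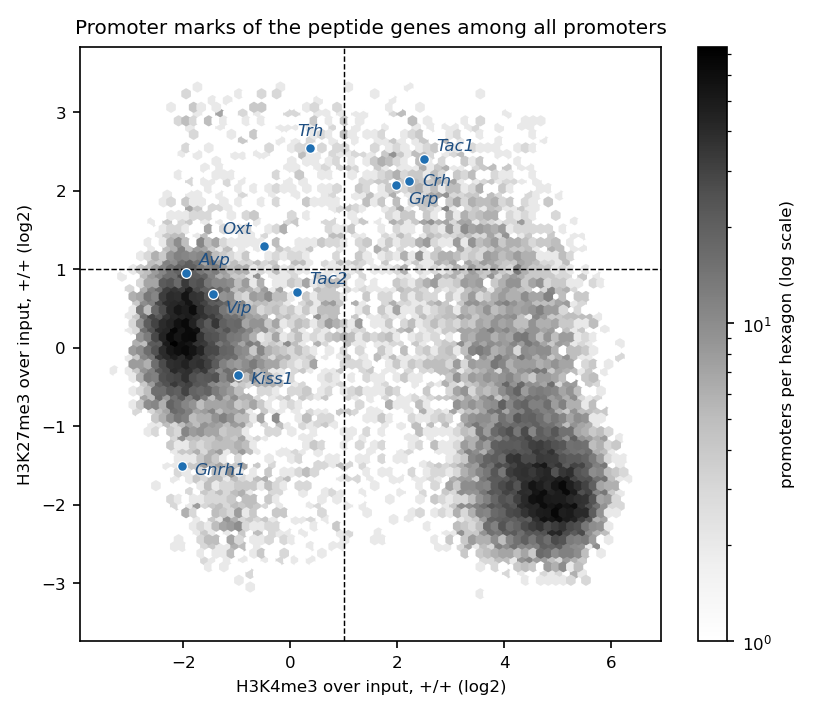
H3K4me3 (x axis) and H3K27me3 (y axis) over input in +/+ as log2 differences of 3 libraries each, for all 25124 promoters tested (grey hexagons, shaded by number on a log scale) and the 10 peptide genes (blue), with dashed lines at 1. Tac1, Crh and Grp lie in the upper right, Trh and Oxt in the upper left, and none of the 10 lies in the dense lower right group with high H3K4me3 and low H3K27me3.

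Avp and Oxt, the 2 most abundant transcripts, had no H3K4me3 above input in the promoter window. Input is a high reference here, since the median tile held 2 or 3 reads in the +/+ H3K4me3 libraries and 12 to 20 in their inputs. A value under input can therefore still lie above the usual tile of its library. At Avp the H3K4me3 signal was 0.126, 0.200 and 0.328 RPM (reads per tile of 2000 bp, scaled to the mapped reads of the library) in +/+, below every input value there, which ran from 1.0 to 1.18 RPM, and at Oxt it was 0.506, 0.665 and 0.624 RPM with input at 0.782 to 1.07. Further into the genes the mean in +/+ was above input, at 1.44 times input over the Avp body and 2.15 times over the Oxt body. At Trh the tile with the most H3K4me3 had its centre 649 bp after the start, just past the promoter window. It held 2.72, 1.26 and 3.74 RPM in +/+ and 1.44, 3.55 and 3.94 RPM in Δ/D329A. At the start of Gnrh1, whose transcript was the scarcest, both marks were below input (log2 over input -2.02 for H3K4me3 and -1.51 for H3K27me3). Vip was under input in H3K4me3 (-1.44) and above it in H3K27me3 (0.69), and Tac2 was near input in the first (0.12) and at 0.71 in the second. The Avp promoter lay just under the limit in H3K27me3 (0.95, adjusted p = 5.27e-05, and 1.01 without replicate 2).

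Avp and Oxt shared 1 H3K27me3 domain that peaked between their starts. The highest tile near both was the same, with its centre 2553 bp downstream of the Avp start and 3828 bp downstream of the Oxt start, and it held 5.92, 6.48 and 6.89 RPM in +/+ and 4.97, 5.31 and 6.30 RPM in Δ/D329A. These ranges overlap. Runs of tiles at 2 or more times input spanned 9 kb in +/+ and 10 kb in Δ/D329A around these 2 genes. Runs at Trh (9 kb), Tac1 (8 kb) and Crh (7 kb) in +/+ were of like length, with 9, 8 and 5 kb in Δ/D329A.

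H3K36me3 was low over the bodies of the peptide genes. It was called over input at 0 of 10 gene bodies, from 500 bp after the start to the end of the gene, where 15.7% of all bodies were called and 29.4% of the 3625 genes at or above 1 RPKM and no longer than 13759 bp, the length of Grp. Of the 10, 9 lay below input, from -0.56 at Tac1 to -2.62 at Crh on the log2 scale, and Gnrh1 was above it at 0.73. At Avp and Oxt, the 2 with the most RNA, it was -1.59 and -1.21. Several of these bodies are shorter than 1 tile of 2000 bp, so their values also cover flanking sequence, and Gnrh1 adjoins Kctd9, a gene at 1.45 to 1.87 RPKM in +/+.

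The genotypes were then compared mark by mark. H3K4me3 at promoters was called at 1 of 10 peptide genes, Grp, where 0.864% of all promoters were called at a limma adjusted p under 0.05. The Grp promoter held 4.71, 3.33 and 3.45 RPM in +/+ and 1.10, 3.27 and 1.16 RPM in Δ/D329A. Replicates 1 and 3 of Δ/D329A were close to input, which ran from 0.782 to 1.14 RPM over both genotypes, whereas replicate 2 lay just under the lowest +/+ library. The log2 difference was -1.17 (SE 0.31, limma adjusted p = 0.0192, exact permutation p = 0.1, the smallest that 3 against 3 allows). Without Δ/D329A replicate 2 it was -1.66 (adjusted p = 5e-05), and leaving out any other library ended the call, as did centring each library on its median (-1.0, adjusted p = 0.224), taking the signal over input (adjusted p = 0.0518) and a promoter of 1000 bp to each side (adjusted p = 0.0513). Among the 6 H3K4me3 libraries the median tile held 5 reads in Δ/D329A replicate 1, 1 read in replicate 2 and 2 or 3 reads in the rest, and the part of this in the Grp value was not tested.

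H3K27me3 at the Grp promoter was not called. It was 3.62, 3.81 and 4.83 RPM in +/+ and 5.75, 4.87 and 5.33 RPM in Δ/D329A. The groups do not overlap, but +/+ replicate 3 and Δ/D329A replicate 2 all but met. The log2 difference was 0.38 (SE 0.15, limma adjusted p = 0.336), and 0.18 over input (adjusted p = 0.919).

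**Figure D3:**
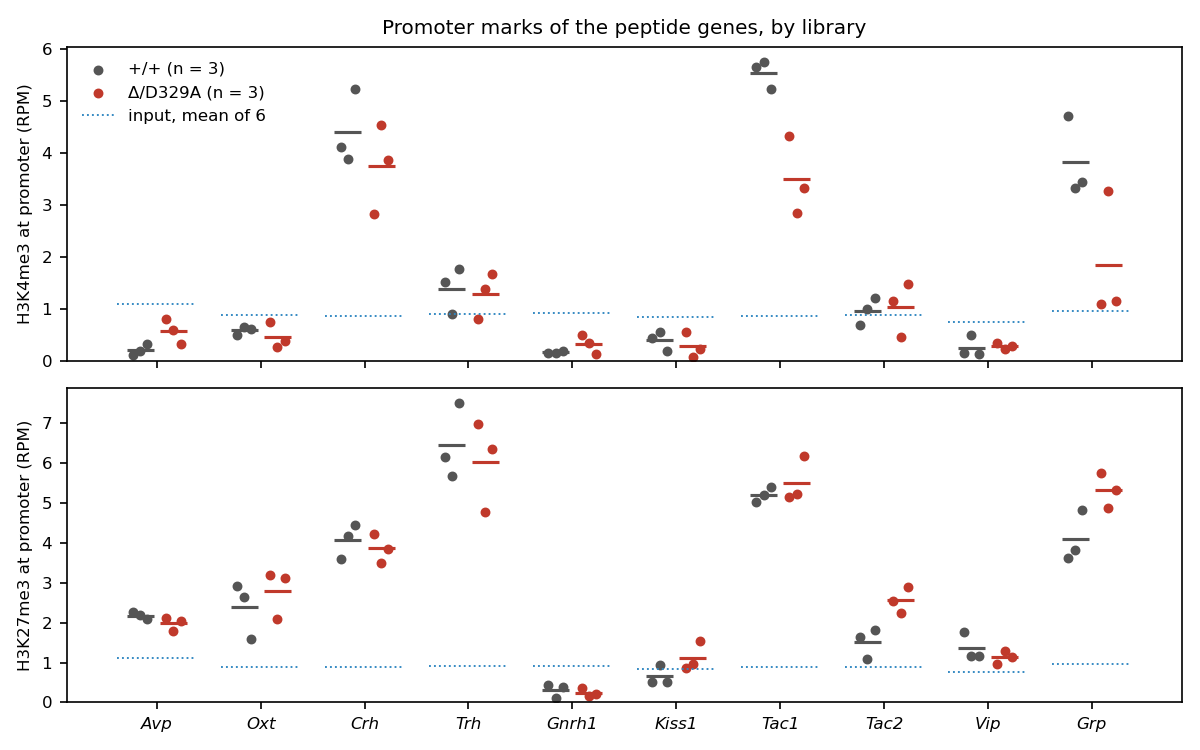
H3K4me3 (top) and H3K27me3 (bottom) at the promoters of the 10 peptide genes in RPM, with 1 point per animal for 3 +/+ (grey) and 3 Δ/D329A (red), bars for the mean and a dotted line for the mean of 6 input libraries. Grp and Tac1 lie lower in H3K4me3 and Tac2 and Grp higher in H3K27me3 in Δ/D329A without overlap, and Crh and Trh keep similar levels of both marks.

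Tac1 had the other H3K4me3 promoter without overlap. It was at 5.66, 5.75 and 5.22 RPM in +/+ and 4.33, 2.84 and 3.32 RPM in Δ/D329A (log2 difference -0.67, SE 0.26, limma adjusted p = 0.472). Over the gene body the values were 3.40, 3.71 and 3.42 RPM in +/+ and 2.32, 1.66 and 1.65 RPM in Δ/D329A, a log2 difference of -0.88 (SE 0.14, limma adjusted p = 0.123) that was not called. All 3 Δ/D329A libraries were lower than all 3 +/+ libraries at both. The tile with the most H3K4me3, 930 bp after the start, held 12.3, 13.0 and 12.4 RPM in +/+ and 8.59, 5.92 and 7.04 RPM in Δ/D329A, and the run at 2 or more times input spanned 6 kb and 4 kb. H3K27me3 at the promoter was 5.03, 5.19 and 5.40 RPM in +/+ and 5.14, 5.23 and 6.17 RPM in Δ/D329A (log2 difference 0.08, limma adjusted p = 0.920). Of all promoters, 6.24% had H3K4me3 groups without overlap, against Grp and Tac1 among the 10.

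H3K27me3 was called at none of the 10 promoters between the genotypes, where 1.0% of all promoters were called (252, of which 200 were higher in Δ/D329A), and 3 of the 10 had an unadjusted p under 0.05, as did 9.68% of all promoters. Groups did not overlap at Tac2 and Grp, where 13.9% of all promoters did not. Tac2 was at 1.64, 1.08 and 1.81 RPM in +/+ and 2.55, 2.23 and 2.89 RPM in Δ/D329A. The log2 difference was 0.75 (SE 0.21, limma adjusted p = 0.0588), and without Δ/D329A replicate 2 it was 0.84 (adjusted p = 0.0360), the only library whose omission gave a call. Without +/+ replicate 2 it was 0.54 (adjusted p = 0.480) and without Δ/D329A replicate 3 0.66 (adjusted p = 0.391), and the adjusted p was 0.242 with 1000 bp to each side and 0.552 over input. Over the Tac2 body the values were 2.25, 2.64 and 2.37 RPM in +/+ and 2.92, 3.07 and 3.03 RPM in Δ/D329A (log2 difference 0.30, SE 0.10, limma adjusted p = 0.409). The body was at 2.53 times input in +/+ already. The highest tile, at -2477 bp from the start, held 2.96, 2.46 and 3.42 RPM in +/+ and 4.84, 2.75 and 4.42 RPM in Δ/D329A. At the tile over the start the mean was under 2 times input in +/+ and above it in Δ/D329A.

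**Figure D4:**
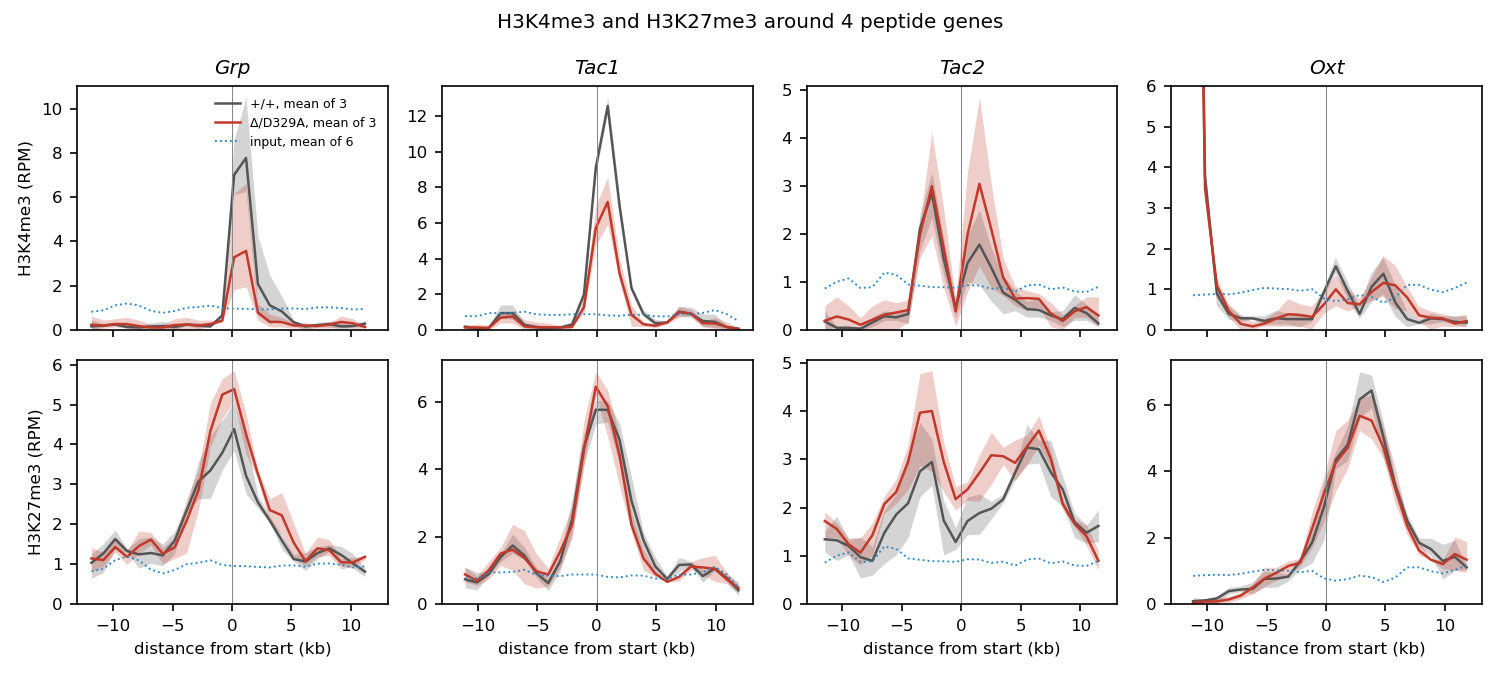
H3K4me3 (top) and H3K27me3 (bottom) in RPM per 2000 bp tile against the distance from the start in kb along the strand of the gene, for Grp, Tac1, Tac2 and Oxt, as the mean of 3 +/+ (grey) and 3 Δ/D329A (red) libraries with the range shaded and the input mean dotted. Grp and Tac1 have lower H3K4me3 peaks in Δ/D329A (7.77 and 3.57 RPM at the highest Grp tile), Tac2 has more H3K27me3 around its start, and the Oxt domain peaks downstream of the gene. The H3K4me3 axis for Oxt ends at 6 RPM and cuts a neighbouring peak about 10 kb before its start.

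The remaining comparisons gave 0 calls among the 10 genes. H3K4me3 was called at 0.0529% of all gene bodies, H3K27me3 at 0.00407% and H3K36me3 at 0%, and H3K36me3 at 0.0358% of all promoters. At an unadjusted p under 0.05 there were 3 genes for H3K4me3 over bodies (Tac1, Oxt and Grp), as were 3.95% of all bodies. For H3K27me3 over bodies there were 2 (Tac2 and Grp), with 11.2% of all bodies, and for H3K36me3 over bodies 1 (Crh), with 14.7%. For H3K36me3 at promoters there were 2 (Trh and Gnrh1), with 7.24% of all promoters. Over the Crh body H3K36me3 was 0.0438, 0.0474 and 0 RPM in +/+ and 0.146, 0.147 and 0.157 RPM in Δ/D329A (log2 difference 0.96, SE 0.24, limma adjusted p = 0.257), all under the lowest input value of 0.556 RPM. Kiss1 had H3K27me3 of 0.503, 0.931 and 0.521 RPM in +/+ and 0.874, 0.955 and 1.55 RPM in Δ/D329A (log2 difference 0.71, SE 0.28, limma adjusted p = 0.325), with input at 0.784 to 0.960 RPM over both genotypes, and around the RefSeq start of Kiss1, 5337 bp further along the gene, the difference was 0.41. At Avp, H3K4me3 was 0.815, 0.592 and 0.323 RPM in Δ/D329A against 0.126 to 0.328 in +/+, a log2 difference of 1.07 (SE 0.51, limma adjusted p = 1) between values that all lie under input. Over the Oxt body H3K4me3 was 1.39, 1.53 and 1.77 RPM in +/+ and 1.07, 1.34 and 0.581 RPM in Δ/D329A (log2 difference -0.66, SE 0.25, limma adjusted p = 1). Crh kept both marks, with promoter H3K4me3 of 4.11, 3.89 and 5.22 RPM in +/+ and 2.82, 4.54 and 3.87 RPM in Δ/D329A, and H3K27me3 of 3.59, 4.17 and 4.44 and of 4.24, 3.50 and 3.86 RPM. These Crh values overlap in both marks. Trh H3K27me3, the highest of the 10 promoters, was 6.17, 5.67 and 7.51 RPM in +/+ and 6.99, 4.77 and 6.35 RPM in Δ/D329A (log2 difference -0.10, SE 0.14, limma adjusted p = 0.886).

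Genes that act with these peptides were followed in 5 lists of 67 genes, of which 61 were expressed enough to be tested. By limma 0 were called and 14 had an unadjusted p under 0.05, against 0.107% and 7.62% of all genes tested. edgeR called Adcyap1 and Sim1 (0.548% of all genes it tested), and DESeq2 called these and Pam, Mme and Rora (1.23%). Among 18 receptors 14 were tested, 6 above and 8 below a log2 difference of 0, with a median of -0.06. The smallest p values were those of Vipr1, a receptor for VIP (1.14, SE 0.39), Tacr3, the neurokinin B receptor (-0.53, SE 0.19), and Trhr2, a TRH receptor (1.17, SE 0.43), each with a limma adjusted p of 0.355. Among 11 related ligands 9 were tested, 4 above and 5 below 0. Adcyap1, which encodes PACAP, a relative of VIP, was at 22.9, 17.8, 19.0, 15.2 and 12.3 RPKM in +/+ and 10.9, 7.60, 11.2 and 12.3 RPKM in Δ/D329A. Its groups just miss each other, with a log2 difference of -0.73 (SE 0.20, limma adjusted p = 0.342), and edgeR and DESeq2 both called it (adjusted p = 0.00169 and 2.48e-09). Ucn3, a CRH relative, had 1.30 (SE 0.47) and Nmb, a GRP relative, -0.83 (SE 0.34).

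The machinery that cuts and stores peptides had no call by limma. All 13 processing and granule genes were tested, 5 above and 8 below 0 with a median of -0.02, and the smallest p values belonged to Scg3, a granin (-0.40, SE 0.20), Pam, the amidating enzyme (-0.44, SE 0.22, called by DESeq2 with adjusted p = 0.000243), and Pcsk1, a prohormone convertase (-0.42, SE 0.22). Against +/+ replicates 4 and 5 alone these differences were -0.09, -0.03 and -0.02, where the median over all genes was 0.35. Of 7 genes for binding and degradation, 1 lay above 0 and 6 below. Mme, the endopeptidase neprilysin, was at -1.01 (SE 0.25, limma adjusted p = 0.255, DESeq2 adjusted p = 0.00135), Prep at 0.45 (SE 0.22) and Crhbp, which binds CRH, at -0.50 (SE 0.36). Of 18 factors of the neurons that make the peptides, 6 lay above 0 and 12 below. Sim1, needed for the paraventricular and supraoptic neurons, was at 1.94, 2.26, 2.29, 2.12 and 1.76 RPKM in +/+ and 1.15, 0.918, 1.25 and 1.41 RPKM in Δ/D329A. These groups do not overlap, with a log2 difference of -0.82 (SE 0.17, limma adjusted p = 0.155, called by edgeR with 0.00864 and by DESeq2 with 9.98e-05), and it was -0.73 against +/+ replicates 4 and 5 alone. Rora had 0.75 (SE 0.19, limma adjusted p = 0.268, DESeq2 adjusted p = 0.00443), and Zfhx3, a factor of the suprachiasmatic nucleus, 0.46 (SE 0.17).

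**Figure D5:**
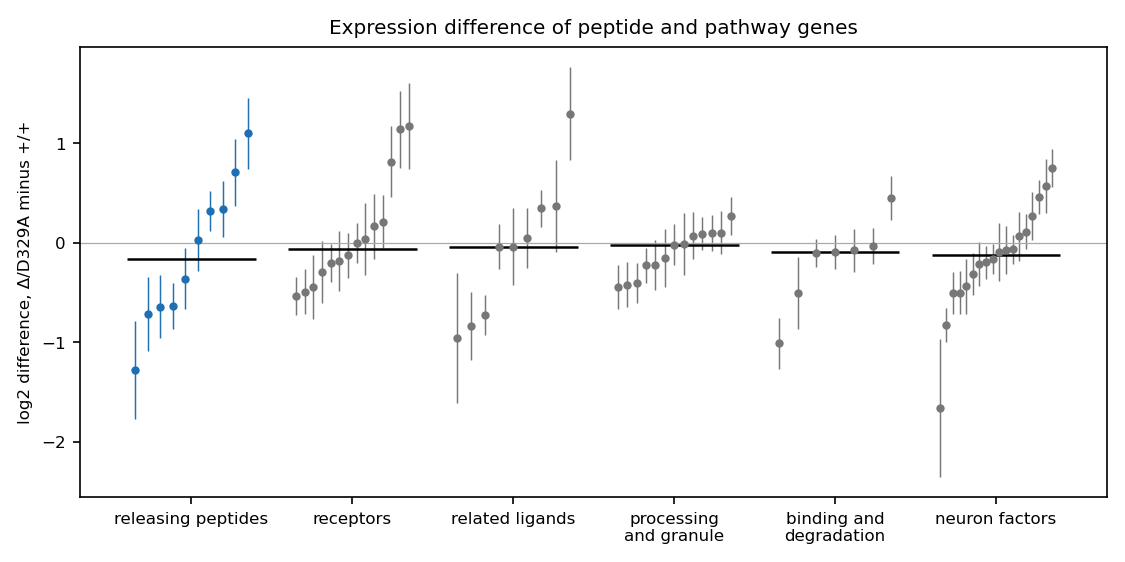
Log2 difference in expression, Δ/D329A minus +/+ (y axis), with 1 SE from limma, for the 10 peptide genes (blue) and the tested genes of the 5 lists (grey), ordered within each list, with a black bar for the median. The peptide genes run from -1.28 to 1.10 with a median of -0.17, and the processing and granule genes stay between -0.44 and 0.27.

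In the marks, 4 of the 67 promoters of these lists were called for H3K4me3, where 0.864% of all promoters were. Nmu, a neuromedin gene with 8 reads over all +/+ and 5 over all Δ/D329A RNA libraries, fell by 1.60 on the log2 scale (SE 0.40, limma adjusted p = 0.00950), Adcyap1 fell by 1.13 (SE 0.25, limma adjusted p = 0.00166) and Mme fell by 0.79 (SE 0.20, limma adjusted p = 0.0163). Six3, a homeobox gene of the ventral forebrain, rose by 1.36 (SE 0.23, limma adjusted p = 2.08e-06), while its transcript had a log2 difference of 0.27 (SE 0.24, limma adjusted p = 0.728). H3K27me3 was called at 1 of the 67, Isl1, a factor of arcuate neurons, which fell by 0.59 (SE 0.15, limma adjusted p = 0.0366), where 1.0% of all promoters were called.

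For Oxt, Avp, Kiss1 and Tac2, the most closely correlated genes over the 9 libraries lay outside the peptide list. This cannot tell whether the peptides vary together, because the few peptides were ranked among 17838 genes over only 9 points. So wide a search over so few points can give very high correlations without any link between the genes. After each genotype was centred on its own mean, Oxt went with Slc9a7 (Pearson r = 0.996), Comtd1 (0.995) and Smpd2 (0.994), Avp with 2810468N07Rik (0.979), Msx1 (0.975) and Irx5 (0.974), Kiss1 with Cbx2 (0.979), 1110038D17Rik (0.979) and 1700021F05Rik (0.969), and Tac2 with Haus7 (0.983), Pak6 (0.983) and Twist2 (0.970). Among 17838 genes Avp ranked 7566 for Oxt (0.711), and the nearest peptides for Oxt were Crh at rank 1283 (0.926) and Grp at rank 1291 (0.926). Kiss1 ranked 4942 for Tac2 (0.696). These 9 points share library, depth and the spread of library medians, which ran over 0.69 on the log2 scale in +/+. With each library centred on its median the correlation of Avp and Oxt was 0.243 and that of Tac2 and Kiss1 0.451. Oxt kept 0.855 with Crh (rank 414) and 0.820 with Grp (rank 664).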

How the data were processed

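RNA-seq (Ribo-Zero, 50 bp single-end) and native ChIP-seq (2.5% of a hypothalamus per immunoprecipitation, 75 bp single-end) came from 1 animal per library. The authors trimmed reads with Trim Galore, mapped RNA reads with HISAT2 and ChIP reads with Bowtie to GRCm38 (versions in the submitters' processing notes are 0.4.3, 2.0.5 and, for Bowtie2, 2.3.2), quantified with SeqMonk and deposited log2 RPKM per gene, with a floor of 0.9 reads, and a ChIP signal (RPM, reads scaled to the library's mapped reads) over tiles of 2000 bp every 1000 bp. The bisulfite libraries were not analysed here.

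Expression was compared with limma 3.58.1 (trend, genes reaching 0.1 RPKM in 4 or more libraries, no mitochondrial genes), marks with limma on log2 of RPM plus 0.1 over all promoters or gene bodies with a mean input of at least 0.1 RPM, and single genes with exact permutation tests, all two-sided, with Benjamini-Hochberg adjustment over the whole table. edgeR 4.0.16 and DESeq2 1.42.0 ran on whole reads recovered from the deposited values for 25962 of 25965 genes, within 0.02 reads. Fits were tested on simulated data. A run is the stretch of neighbouring tiles through the tile at the start where the mean is at or above 2 times input. Mark and input of a number came from the same animal per the study, so that numbers pair them. Same-numbered deviations correlated at -0.03 to 0.03 there, and the block changed no call among the 10 genes. Named genes are the 10, per list those called or else the 3 with the smallest p, the 3 most correlated with Avp, Oxt, Kiss1 and Tac2, and Dnmt3a. Other list genes named were called for a mark or by edgeR or DESeq2, or are markers. The genes, lists and tests were chosen with earlier results of these data known.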

Additional observations from a re-analysis of the deposited data

How the results depend on the processing

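The check counted 29 values, only a part of those for the 10 genes, and 391 alternatives. Of these alternatives 361 kept direction and side of the threshold, 9 lost a call, 7 gained one and 14 changed sign. It is not a count over every mark and gene, and values near 0 often changed sign. H3K4me3 at the Trh promoter, -0.11 between the genotypes, became 0.06 with median centring and 0.23 over input. The number of expression calls among the 10 stayed at 0 except with DESeq2 (1, Tac1). The single H3K4me3 promoter call (Grp) became 0 without the limit on input, with median centring, over input and with promoters of 1000 bp to each side, and 0 to 1 with a library left out. H3K27me3 promoter calls ran from 0 to 1 with a library left out. Against input, median centring gave 0 H3K4me3 and 8 H3K27me3 calls, since it removes the promoters' median, and Crh, Tac1 and Grp H3K4me3 became -0.72, -0.46 and -0.98. Oxt expression, near 0, became -0.038 with quantile normalization, -0.0195 with edgeR, -0.0179 with DESeq2 and from -0.138 to 0.202 with a library left out. These causes were not tested.

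Same-numbered animals of the 2 genotypes share only a number. With that replicate block H3K4me3 over bodies gave 1 call (Tac1, adjusted p = 0.000257), H3K27me3 at promoters 1 (Tac2, adjusted p = 0.0268), and Oxt expression was -0.13, the same as for numbers 1 to 4 without the block. Own-number correlation was the best for every animal in H3K27me3 at promoters and H3K36me3 over bodies only. Alternatives chosen after seeing the data were +/+ replicates 4 and 5 only, a block by reads on mt-Co2 to mt-Nd4l, numbers 1 to 4 without a block and the RefSeq start of Kiss1. The first gave Tac2 0.064, where the median over all genes was 0.35, and the second Tac2 0.14 and Grp 0.20. The second also gave Oxt 0.69, Avp 0.74 and Crh 1.18, where the median over all genes was 0.30. Every gene but Tac2 and Grp kept its sign with it. In that block only +/+ replicate 4 stands with the Δ/D329A libraries, so the values rest on it.

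Over all features, expression calls (19) were 11 at 0.5 RPKM, 34 and 32 with median centring and quantile normalization, 76 with edgeR, 251 with DESeq2, 11 to 18 with a library left out, 11 with +/+ replicates 4 and 5 only and 4 with the mitochondrial block. The split of 15 higher and 4 lower became 22 and 12 with median centring, 16 and 16 with quantile normalization, 40 and 36 with edgeR, and 132 and 119 with DESeq2. H3K4me3 promoter calls (217, 176 of them lower) were 0 without the input limit, 77 with median centring (54 lower), 495 with a block by mitochondrial coverage and 35 to 472 with a library left out. H3K27me3 promoter calls (252) were 0 without the input limit, 40 over input and 94 to 463 with a library left out. H3K4me3 body calls (13) were 304 with the replicate block, 1 without the input limit, 7 over input, 22 with mitochondrial coverage and 3 to 75 with a library left out. H3K36me3 promoter calls (9) were 2 with centring, 0 over input, 5 with the replicate block and 1 with 1000 bp to each side. H3K27me3 and H3K36me3 body calls stayed between 0 and 2. Over input, H3K27me3 calls (3044) were 5981 with centring and H3K36me3 calls (3862) 1628 with a pseudocount of 0.5 RPM. Few reads limit Gnrh1, Kiss1, Crh and Grp, and 3 animals against 3 limit the marks.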
